A study of Mus musculus with 14 samples.

Results

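Leaving the cell cycle for good is a step that a myoblast takes on its way to a muscle fibre, and 10 genes of the machinery that makes that step were followed here in differentiating C2C12 cells. They were chosen by name as the transcripts annotated Cdkn1a, Cdkn1b, Cdkn1c, Cdkn2c, Rb1, Rbl1, Rbl2, Ccnd1, Ccnd2 and Ccnd3 among the 24016 transcripts of the RNA-seq table, by a rule that reads names and no measured value. These genes and the other gene lists were drawn up with earlier results of these data known. Counts set against all expressed transcripts are therefore descriptions. All 10 were listed, and all 10 were among the 14312 transcripts called expressed, that is, averaging 1 or more FPKM in the 8 libraries.

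C2C12 is a mouse myoblast line whose cells fuse into myotubes when growth medium is exchanged for differentiation medium with horse serum. All groups came from this line. The control group (siCtrl) received control siRNA, and the Klf5 knockdown group (siKlf5) received a pool of siRNAs against Klf5, a zinc finger transcription factor of the Krüppel-like family. Poly(A) RNA of each group was sequenced on day 0 and after 1, 2 and 3 days in differentiation medium, and each combination of siRNA and day has a single library and no replicate. The study asked with these libraries what loss of Klf5 does to gene expression as myoblasts differentiate, and the ChIP-seq samples of the series were not used here.

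The cell cycle is driven through its first gap phase by D-type cyclins, which pair with Cdk4 and Cdk6 and phosphorylate the pocket proteins Rb1 (pRb), Rbl1 (p107) and Rbl2 (p130). Unphosphorylated pocket proteins hold E2F transcription factors, and the genes that E2F activates for DNA synthesis stay silent. Cdk inhibitors of the Cip/Kip family (Cdkn1a or p21, Cdkn1b or p27, Cdkn1c or p57) and of the Ink4 family (Cdkn2c or p18) block the kinases. In muscle, p21 and pRb are known for holding myotubes out of the cycle, and cyclin D3 is known as the D cyclin that stays in differentiated muscle.

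Klf5 itself was listed at 15.7%, 41.9%, 31.3% and 22.7% of the control level on days 0, 1, 2 and 3. Depth was between 7850497 and 20301506 reads per library, as recovered from the deposited values, and the deepest library was siCtrl on day 2. All 8 skeletal muscle markers checked were expressed. Their summed level was 3110 to 16540 in siCtrl and 2603 to 15694 in siKlf5 libraries, against 0.826 to 85.8 over all libraries for each of the lists of fibroblast or adipocyte, endothelial, leukocyte and Schwann cell or neuronal markers. Lep, Cd3e and Snap25 were at 0 in every library. The highest markers of these lists were Dpt (3.09 to 65.2), Lyz2 (16.3 to 65.0), Cd68 (1.91 to 23.5) and Pi16 (0.909 to 22.9). The part of other cells in the results was not tested. RNA was taken from whole cultures, in which fewer cells of a type and less RNA per cell cannot be told apart.

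Promoter sequences were available for 6 of the 10 genes in a RefSeq promoter table, and none is shown for Cdkn1c, Rb1, Ccnd1 and Ccnd2. Each sequence was located on mm9 by an exact match, and the 250 bases before a transcription start were searched on both strands for E2F words (TTTGGCGC, TTTCCCGC, TTTGCCGC and TTTCGCGC), for E-boxes (CAGCTG and CAGGTG), the words bound by MyoD and its relatives, and for GC boxes (GGGCGG), the words bound by Sp and many Krüppel-like factors. The promoters of Rbl1, Cdkn1a and Ccnd3 are shown because Rbl1 fell and Cdkn1a and Ccnd3 rose during differentiation. Capitals mark the words found, none of which overlapped another. Rbl1 lies on the minus strand of chromosome 2, and its window is chr2:157030271-157030520. Cdkn1a lies on the plus strand of chromosome 17, and the window whose start site lies 3 bases before the counted transcript is chr17:29230464-29230713. Ccnd3 lies on the plus strand of chromosome 17, and the window next to the counted transcript is chr17:47730166-47730415.
Rbl1: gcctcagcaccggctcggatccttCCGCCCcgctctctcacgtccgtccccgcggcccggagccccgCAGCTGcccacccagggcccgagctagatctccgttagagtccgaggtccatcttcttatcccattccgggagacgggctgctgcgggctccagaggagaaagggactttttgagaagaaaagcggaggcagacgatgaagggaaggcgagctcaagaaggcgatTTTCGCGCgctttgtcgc
Cdkn1a: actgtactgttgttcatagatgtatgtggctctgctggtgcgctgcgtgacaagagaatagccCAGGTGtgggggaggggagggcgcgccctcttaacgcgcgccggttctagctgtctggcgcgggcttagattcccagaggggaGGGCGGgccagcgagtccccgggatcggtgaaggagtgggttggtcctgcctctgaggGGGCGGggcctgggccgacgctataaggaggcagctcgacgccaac
Ccnd3: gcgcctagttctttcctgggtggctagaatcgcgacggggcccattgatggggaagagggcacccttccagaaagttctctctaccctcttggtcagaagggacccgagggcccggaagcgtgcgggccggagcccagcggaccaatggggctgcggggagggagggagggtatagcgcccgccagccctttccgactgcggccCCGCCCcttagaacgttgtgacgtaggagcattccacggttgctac
The Rbl1 window held an E2F word from 18 to 11 bases before the start, and it was the only window of the 6 genes with one. E2F words were found in 1.86% of the 32851 promoters of the table. The Rbl1 window also held the E-box CAGCTG and a GC box, and the Cdkn1a window held the E-box CAGGTG and 2 GC boxes. E-boxes were found in 27.7% and GC boxes in 32.7% of all promoters. The Ccnd3 window held 1 GC box, as did that of Cdkn1b, and the window next to the counted start of Cdkn2c held 3, whereas that of Rbl2 held no word of the 3 kinds. A match is a run of letters and was not tested for binding.

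Levels are given as the FPKM values that the authors deposited, which are per length of transcript and per 10000000 in each library. Reads were kept up to 3 per position, a limit that abundant transcripts in deep libraries meet first. Levels of different genes are therefore compared only roughly, and the part of this limit was not tested. Values are listed in the order day 0, 1, 2 and 3. Intervals for a level or for the ratio of a pair of libraries are 95% exact counting intervals, which cover counting error only. Changes over time were tested with limma on log2(FPKM + 0.1) with day and siRNA in the fit, and a transcript was called when its Benjamini-Hochberg adjusted p over all 14312 expressed transcripts was under 0.05. The 2 libraries of a day differ in siRNA and stand in for replicates of that day. The comparisons of days 1, 2 and 3 share the day 0 libraries.

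Among the Cdk inhibitors, Cdkn1a was the most abundant and rose on days 1, 2 and 3, whereas Cdkn1b did not pass the test, Cdkn2c fell on day 1, and Cdkn1c was barely detected. Cdkn1a (NM_007669, mm9 chromosome 17, 29230717 to 29237667) encodes p21, which inhibits cyclin-Cdk2 complexes. Its level in siCtrl libraries was 1079, 2468, 1944 and 2806. The siKlf5 libraries held 723.6, 1631, 2037 and 2372. Every library from day 1 on was above both day 0 libraries. The log2 change from day 0 was 1.18 (SE 0.17, limma adjusted p = 0.0038) on day 1, 1.17 (SE 0.17, adjusted p = 0.0027) on day 2 and 1.55 (SE 0.17, adjusted p = 0.00051) on day 3, the last a 2.92-fold rise.

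Cdkn1b (NM_009875, chromosome 6, 134870419 to 134875543) encodes p27, which is largely controlled through the stability of its protein. Its level was 340.5, 255.4, 322.6 and 365.1 in siCtrl libraries and 391.4, 374.9, 380.2 and 361.3 in siKlf5 libraries. All 8 libraries lay between 255.4 and 391.4, and the days overlapped. The log2 change on day 3 was -0.01 (95% interval -0.33 to 0.32, limma adjusted p = 0.98). The ratio of the Cdkn1a to the Cdkn1b level was 3.17 in siCtrl and 1.85 in siKlf5 libraries on day 0, and 7.69 and 6.57 on day 3.

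Cdkn2c (NM_001301368, chromosome 4, 109333481 to 109339361) encodes p18, an Ink4 inhibitor of Cdk4 and Cdk6. In siCtrl libraries its level was 219.3, 115.1, 174.8 and 196.0. The siKlf5 values were 280.8, 180.0, 175.1 and 166.1. All libraries after day 0 were below both day 0 libraries, and the lowest was siCtrl on day 1. The fall was called on day 1 (log2 change -0.79, SE 0.20, limma adjusted p = 0.034). That call was lost with upper-quartile scaling (adjusted p = 0.058), and after median-ratio centring its adjusted p was 0.049. On days 2 and 3 the changes of -0.50 (95% interval -0.97 to -0.04, adjusted p = 0.11) and -0.46 (95% interval -0.92 to 0.01, adjusted p = 0.12) were not called.

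Cdkn1c (NM_009876, chromosome 7, 150644244 to 150646955) encodes p57, an imprinted Cip/Kip inhibitor. Its level was 5.89, 22.2, 7.53 and 4.11 in siCtrl libraries, from 22, 54, 48 and 16 reads. In siKlf5 libraries it was 2.36, 15.4, 5.15 and 14.1, from 8, 39, 19 and 48 reads. In both groups the highest library was that of day 1, which exceeded both day 0 libraries. The day 1 change was 2.28 on the log2 scale (95% interval 0.44 to 4.11, limma adjusted p = 0.092), which did not pass the test. By mean level Cdkn1c had the rank 11636 among all transcripts, and Cdkn1a had the rank 94.

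**Figure D1:**
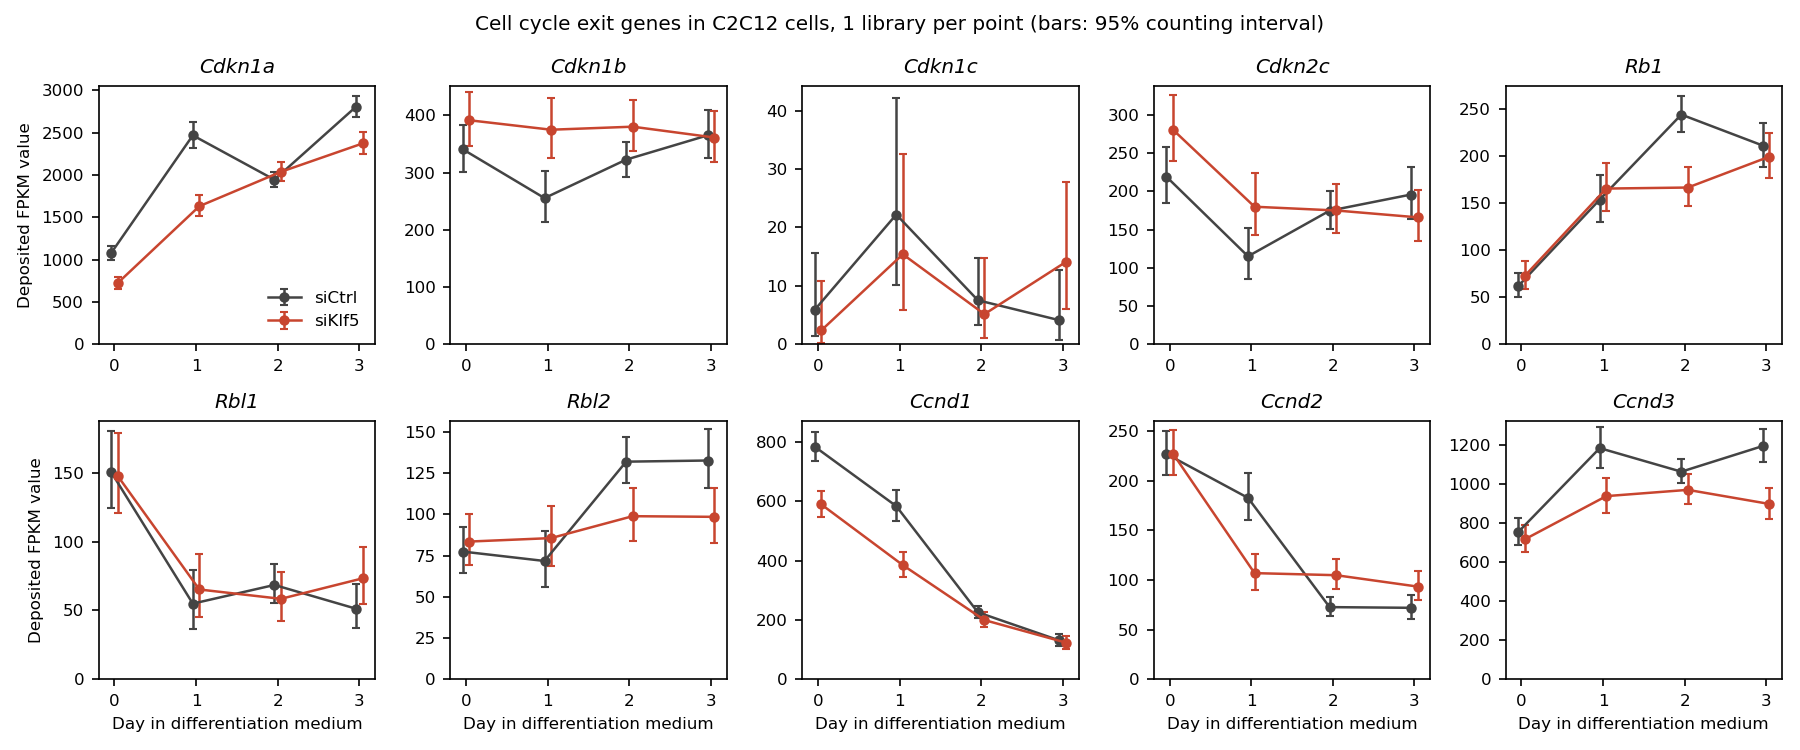
Deposited FPKM value (vertical axis, from 0, a separate scale for each gene) of the 10 genes against day in differentiation medium (horizontal axis), with 1 point per library, siCtrl in dark grey and siKlf5 in red, and bars for the 95% exact counting interval. Cdkn1a, Rb1 and Ccnd3 lay above their day 0 points from day 1 on, Rbl1, Ccnd1 and Ccnd2 below them, and Cdkn1c stayed at or under 22.2.

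The pocket proteins changed places. Rbl1 made up 52.0% of the summed level of the 3 genes in siCtrl and 48.6% in siKlf5 libraries on day 0, and 13.0% and 19.8% on day 3, whereas Rb1 went from 21.3% and 23.9% to 53.5% and 53.7%. These shares are computed on the FPKM scale and describe the libraries without a test.

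Rb1 (NM_009029, chromosome 14, 73595309 to 73725598) encodes pRb, which binds the activating E2F factors. In siCtrl libraries its level was 61.8, 153.9, 244.3 and 211.3. In siKlf5 libraries it was 72.6, 165.6, 166.7 and 199.6. Both day 0 libraries were lower than all others. The log2 change from day 0 was 1.25 (SE 0.19, limma adjusted p = 0.0045) on day 1, 1.59 (SE 0.19, adjusted p = 0.0011) on day 2 and 1.61 (SE 0.19, adjusted p = 0.00067) on day 3. Reads of both strands were counted, and Lpar6, a lysophosphatidic acid receptor gene with a mean level of 40.3, lies within the span of Rb1 on the opposite strand. Counting was on exons, whereas only whole spans were compared here. Whether any reads of these genes were shared was not tested.

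Rbl1 (NM_001139516, chromosome 2, 157000732 to 157030270), whose promoter with the E2F word is shown above, encodes p107, the pocket protein of cycling cells. Its level was 150.8, 55.0, 68.6 and 51.3 in siCtrl and 148.0, 65.3, 58.5 and 73.4 in siKlf5 libraries. The 2 libraries of day 0 stood apart, and the 6 later ones lay between 51.3 and 73.4 with overlapping counting intervals. Rbl1 fell by 1.32 on the log2 scale on day 1 (SE 0.21, limma adjusted p = 0.0055), by 1.24 on day 2 (SE 0.21, adjusted p = 0.0052) and by 1.28 on day 3 (SE 0.21, adjusted p = 0.0031).

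Rbl2 (NM_001282000, chromosome 8, 93593956 to 93647743) encodes p130, the pocket protein typical of quiescent cells. Its level was 77.4, 71.7, 132.0 and 132.7 in siCtrl and 83.5, 85.6, 98.9 and 98.5 in siKlf5 libraries. The libraries of days 2 and 3 were above those of days 0 and 1, by more in siCtrl than in siKlf5. The day 3 change was 0.51 on the log2 scale (95% interval 0.02 to 0.99, limma adjusted p = 0.11) and was not called. After median-ratio centring of the libraries it was 0.62 and was called (adjusted p = 0.048). Rbl2 overlaps the end of Aktip on the opposite strand, which had a mean level of 170.

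D cyclins turned from Ccnd1 to Ccnd3. Ccnd3 made up 42.7% of the summed D cyclin level in siCtrl and 46.7% in siKlf5 libraries on day 0, and 85.6% and 80.6% on day 3. Ccnd1 went from 44.4% and 38.4% to 9.31% and 11.0%. The summed level itself was 1766, 1952, 1363 and 1399 in siCtrl and 1535, 1431, 1276 and 1115 in siKlf5 libraries.

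**Figure D2:**
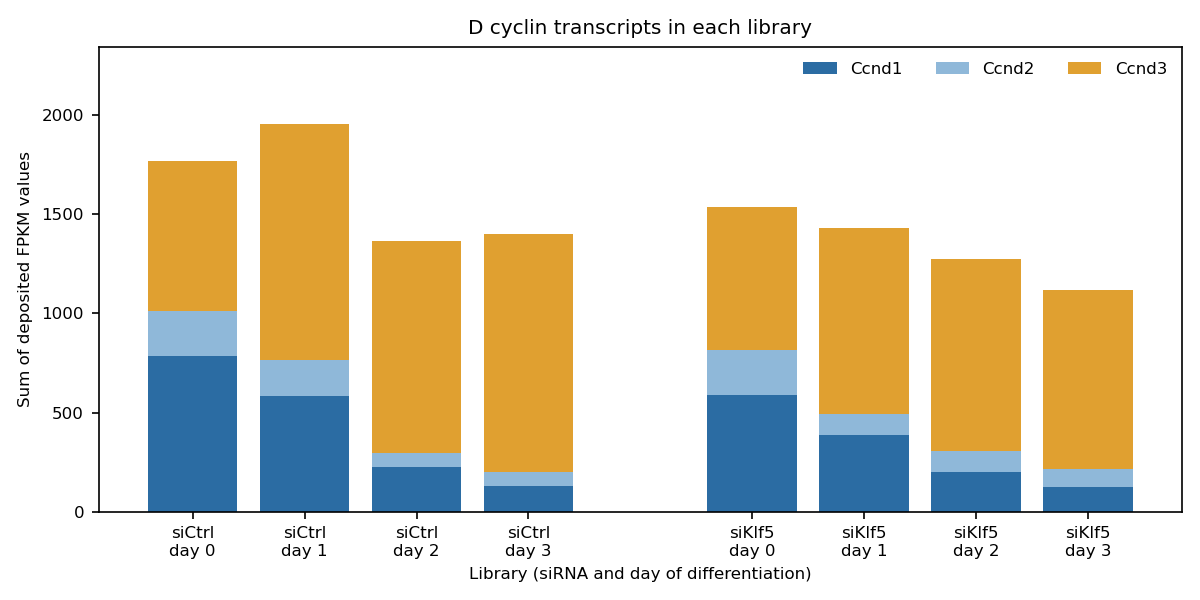
Summed FPKM value of the D cyclin transcripts (vertical axis, from 0) in each of the 8 libraries (horizontal axis, siRNA and day), with the parts of Ccnd1, Ccnd2 and Ccnd3 stacked. The Ccnd3 part grew to 85.6% of the sum in siCtrl and 80.6% in siKlf5 cells on day 3 while the Ccnd1 part shrank.

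Ccnd1 (NM_007631, chromosome 7, 152115836 to 152125830) encodes cyclin D1, which responds to growth factors in serum. In siCtrl libraries its level was 784.5, 583.7, 225.4 and 130.3. Under siKlf5 it was 589.7, 384.7, 199.2 and 123.0. The level was lower on each day than on the day before in both groups. The log2 change of Ccnd1 was -0.52 on day 1 (SE 0.14, limma adjusted p = 0.041), -1.68 on day 2 (SE 0.14, adjusted p = 0.00018) and -2.42 on day 3 (SE 0.14, adjusted p = 2.0e-05), a 5.37-fold reduction and the widest change of the 10 genes on that day. The day 1 fall was no longer called after median-ratio centring (adjusted p = 0.12) or upper-quartile scaling (adjusted p = 0.14).

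Ccnd2 (NM_009829, chromosome 6, 127075727 to 127101066) encodes cyclin D2. Its level was 227.1, 182.8, 72.6 and 71.9 in siCtrl libraries. The siKlf5 values were 227.5, 106.9, 104.8 and 93.3. The groups started level, and the siKlf5 library was already low on day 1, when the siCtrl library was not. Ccnd2 fell by 1.38 on day 2 (SE 0.28, limma adjusted p = 0.011) and by 1.47 on day 3 (SE 0.28, adjusted p = 0.0063) on the log2 scale, and the day 1 change of -0.70 (95% interval -1.35 to -0.05, adjusted p = 0.13) was not called. The calls of Ccnd2 on days 2 and 3 were lost with no filter on low values (limma adjusted p = 0.17 and 0.12) and without the trend of variance on level (0.091 and 0.064).

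Ccnd3 (NM_007632, chromosome 17, 47730416 to 47736637), whose promoter with a GC box is shown above, encodes cyclin D3. Its level was 754.7, 1186, 1065 and 1197 in siCtrl libraries. In siKlf5 libraries it was 717.4, 939.5, 971.7 and 899.2. All 6 libraries after day 0 were above both day 0 libraries. The log2 change was 0.52 (SE 0.12, limma adjusted p = 0.022) on day 1, 0.47 (SE 0.12, adjusted p = 0.026) on day 2 and 0.50 (SE 0.12, adjusted p = 0.016) on day 3. Without siRNA in the fit the adjusted p on these days was 0.071, 0.079 and 0.055. The end of Ccnd3 overlaps Bysl on the opposite strand, which had a mean level of 144.

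Counted over the 10 genes, 3 rose and 3 fell on day 1, against 6.82% of all expressed transcripts that rose and 9.93% that fell. On day 2, 3 rose and 3 fell, against 11.5% and 11.6% of all. On day 3, 3 rose and 3 fell, against 12.8% and 17.6%. The median log2 change of the 10 genes was -0.14, 0.20 and 0.24 on days 1, 2 and 3, and that of all expressed transcripts was -0.09, -0.02 and -0.09. Libraries differ in scale between days. Of all called transcripts 40.7% were higher on day 1 and 42.1% on day 3, and after median-ratio centring these shares were 55.0% and 54.3%, after upper-quartile scaling 59.1% and 53.4%. When limma was run without a trend of variance on level, none of the 6 calls of day 1 held (adjusted p 0.057 to 0.16), and with no filter on low values none of them held either (adjusted p 0.082 to 0.25). On day 2 the calls of Cdkn1a (limma adjusted p = 0.091), Rb1 (0.054), Rbl1 (0.076) and Ccnd3 (0.14) were lost with no filter. Those of Cdkn1a (0.05 as rounded) and Ccnd3 (0.11) were also lost on day 2 without the trend. The day 3 calls of Cdkn1a, Rb1 and Ccnd1 held in every alternative fit that gave a test. On that day the call of Rbl1 was lost with no filter (adjusted p = 0.054), and that of Ccnd3 with no filter (0.10) and without the trend (0.084).

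**Figure D3:**
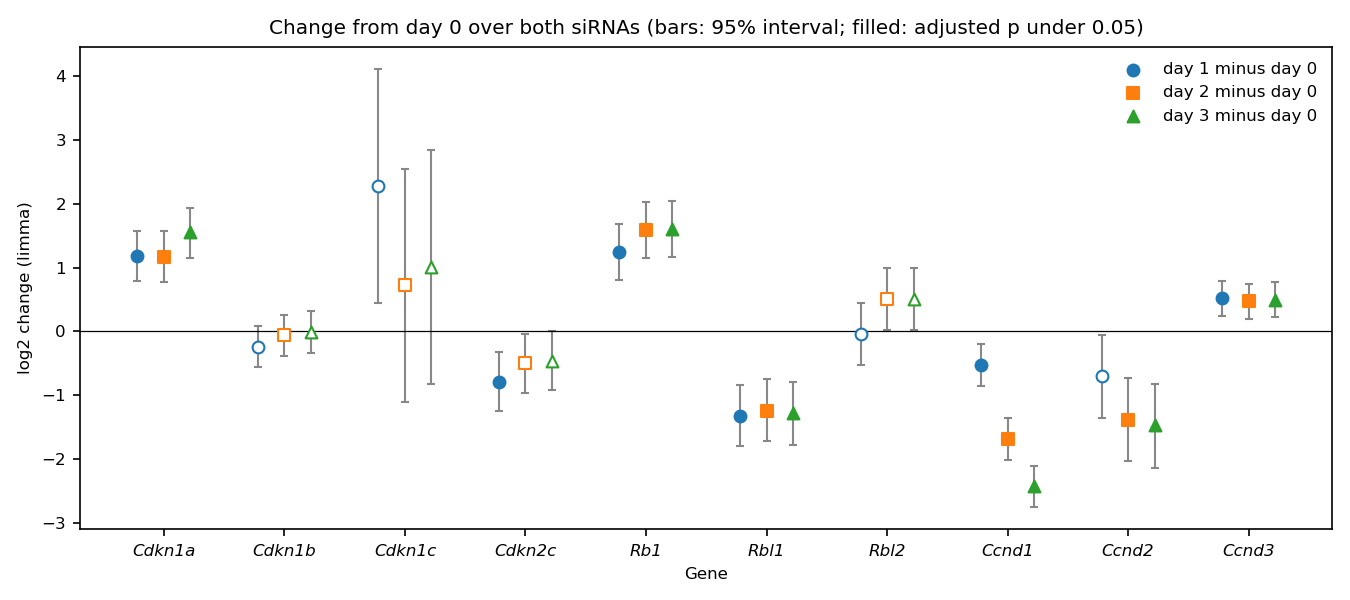
Change from day 0 (vertical axis, log2, limma) of each gene (horizontal axis) on day 1 (circles), day 2 (squares) and day 3 (triangles), over both siRNAs, with 95% intervals and with filled symbols where the adjusted p was under 0.05. Filled symbols stand above 0 for Cdkn1a, Rb1 and Ccnd3 and below 0 for Cdkn2c, Rbl1, Ccnd1 and Ccnd2, and the lowest is Ccnd1 on day 3 at -2.42.

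Ratios between the levels of inhibitors, pocket proteins and cyclins moved with these changes. The level of Cdkn1a over the summed level of the D cyclins was 0.611, 1.26, 1.43 and 2.01 in siCtrl and 0.471, 1.14, 1.60 and 2.13 in siKlf5 libraries. Rb1 over Rbl1 was 0.410, 2.80, 3.56 and 4.12 in siCtrl and 0.491, 2.54, 2.85 and 2.72 in siKlf5 libraries. Both ratios were below 1 on day 0 in both groups, and both were above 1 in all later libraries. Ccnd3 over Ccnd1 was 0.962, 2.03, 4.73 and 9.19 in siCtrl and 1.22, 2.44, 4.88 and 7.31 in siKlf5 libraries, higher on each day than on the day before. These ratios are of transcripts, not of proteins, and were given no test.

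The genes that this machinery acts on were lower on days 1 and 3 than on day 0, and calls of these lists were not counted for day 2. Of 15 E2F target genes of DNA synthesis, 13 fell on day 1 and 15 on day 3, against 9.93% and 17.6% of all expressed transcripts. Their median log2 change on day 3 was -1.65. Mcm3, a part of the replicative helicase, fell by 2.07 on the log2 scale (SE 0.15, limma adjusted p = 6.9e-05). Mki67, the proliferation marker Ki-67, fell by 2.01 (SE 0.30, adjusted p = 0.0021), and Tyms, thymidylate synthase, fell by 1.93 (SE 0.20, adjusted p = 0.00034). The fall was not steady. In both groups most of the 15 were higher on day 2 than on day 1, though still below day 0. Mcm3 was at 448.4, 125.7, 172.3 and 92.39 in siCtrl libraries, whereas Tyms, at 105.7, 53.10, 41.80 and 30.90, was lower on each day. All 15 were also called lower on day 3 after either scaling, without siRNA in the fit and without the trend. With no filter on low values the Mki67 call was lost (adjusted p = 0.078).

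Of 10 kinases, cyclins and regulators listed for the G1 and S phases, 6 fell on day 3 and none rose, against 17.6% and 12.8% of all expressed transcripts. Ccne1 (cyclin E1) fell by 2.23 on the log2 scale (SE 0.17, limma adjusted p = 7.6e-05), the kinase gene Cdc7 by 1.76 (SE 0.28, adjusted p = 0.0026) and Ccna2 (cyclin A2) by 1.52 (SE 0.11, adjusted p = 5.3e-05). Of 10 E2F and DP factors, 5 fell and none rose, against the same shares of all expressed transcripts. E2f7, a repressor, fell by 1.36 (SE 0.20, adjusted p = 0.0021) and E2f1, an activator, by 1.04 (SE 0.15, adjusted p = 0.0017), whereas Tfdp2, a partner of E2F, changed by 0.93 (adjusted p = 0.053). Of 7 genes of the MuvB core and its partners, which join p130 or the activators Mybl2 and Foxm1, 4 fell, against the same 17.6%. Their log2 changes were -2.57 for Mybl2 (SE 0.24, adjusted p = 0.00022), -1.74 for Foxm1 (SE 0.15, adjusted p = 0.00017) and -1.22 for Lin54, a DNA-binding part of the core (SE 0.24, adjusted p = 0.0065). After either scaling of the libraries 4 of the E2F and DP factors fell and Tfdp2 was called higher, and among the MuvB genes Rbbp4, a histone-binding protein singled out after its values were seen, was also called higher.

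Of the other Cdk inhibitors, Cdkn2a and Cdkn2b were at 0 in all 8 libraries. Cdkn3, a phosphatase that acts on Cdks, fell by 0.89 on the log2 scale on day 3 (SE 0.22, limma adjusted p = 0.018), a call that was lost without siRNA in the fit (adjusted p = 0.071) and with no filter on low values (0.075), and Cdkn2d (p19) changed by -0.30 (adjusted p = 0.11). Among 7 parts of the ubiquitin ligases that remove inhibitors and cyclins, 2 fell and 1 rose on day 3, against 17.6% and 12.8% of all expressed transcripts. Skp2 and Cks1b, which together direct the degradation of p27, fell by 1.52 (SE 0.17, adjusted p = 0.00056) and 1.42 (SE 0.12, adjusted p = 0.00016), and Fbxw7, which directs that of cyclin E, rose by 0.68 (SE 0.22, adjusted p = 0.046). The Fbxw7 call was lost without siRNA in the fit (adjusted p = 0.072), without the trend (0.085) and with no filter (0.13). After either scaling of the libraries 2 of the 7 parts rose and 2 fell. The 14 other genes of p53 and its targets, to which Cdkn1a also belongs, were split. On day 3, 4 rose and 3 fell, against 12.8% and 17.6% of all expressed transcripts. Among them were Gadd45a (log2 change 1.78, SE 0.13, limma adjusted p = 6.7e-05), Trp53inp1 (1.54, SE 0.32, adjusted p = 0.0088) and Sesn2 (-1.95, SE 0.26, adjusted p = 0.0012). With no filter the Trp53inp1 call was lost (adjusted p = 0.09).

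The knockdown was compared with the control on each day. On day 0 no gene of the 10 was more than 1.5-fold higher in siKlf5 cells and 1 was more than 1.5-fold lower, against 9.22% and 11.1% of all expressed transcripts. On day 1 it was 1 higher and 3 lower, against 16.4% and 11.0% of all. On day 2 it was none, against 7.69% and 13.0%, and on day 3 it was 1 higher and none lower, against 10.7% and 12.5%. With 1 library per siRNA and day these differences carry no test. The counting interval left out 0 for 3, 6, 4 and 4 of the 10 genes on days 0, 1, 2 and 3, against 9.55%, 12.7%, 17.5% and 13.7% of all expressed transcripts. A counting interval narrows as reads increase, and the expressed transcripts reach down to a mean of 1. These shares were not matched for level, so they cannot show an excess among the 10 genes. The medians of the 10 log2 ratios were -0.01, -0.12, -0.15 and -0.08, and those of all expressed transcripts were 0.00, 0.03, -0.03 and 0.00. On day 2 the siCtrl library was 1.72 times as deep as the siKlf5 library, and the part of depth and of the limit on reads per position was not tested.

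The 3 genes that were more than 1.5-fold lower in siKlf5 cells on day 1 were Cdkn1a, Ccnd1 and Ccnd2. Cdkn1a was at 67.1% of the control level on day 0 and 66.1% on day 1, and at 105% and 84.6% on days 2 and 3. Its log2 ratio was -0.60 (95% counting interval -0.74 to -0.46) on day 1 and 0.07 (-0.03 to 0.17) on day 2. Cdkn1a was below control beyond counting error on days 0, 1 and 3 and not on day 2. On day 2 Cdkn1a had 12442 reads in the siCtrl and 7545 in the siKlf5 library. The part of the limit on reads per position in this ratio was not tested. Ccnd1 was at 75.2%, 65.9%, 88.4% and 94.4% of control, with a log2 ratio of -0.60 (-0.81 to -0.39) on day 1. Ccnd2 was at 100%, 58.5%, 144% and 130% of control, and its log2 ratio was -0.77 (-1.09 to -0.46) on day 1 and 0.53 (0.25 to 0.81) on day 2. All 4 genes past 1.5-fold on day 1 were within 2-fold.

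Cdkn2c was the gene more than 1.5-fold higher on day 1, at 156% of control and a log2 ratio of 0.64 (95% counting interval 0.12 to 1.18), and after median-ratio centring it was no longer past 1.5-fold. Cdkn1b was at 147% of control on that day (log2 ratio 0.55, 0.23 to 0.88) and at 99.0% on day 3. Among the pocket proteins, Rb1 was at 68.2% of control on day 2 (log2 ratio -0.55, -0.77 to -0.34) and at 94.4% on day 3. Rbl2 was at 74.9% on day 2 and 74.2% on day 3, with log2 ratios of -0.42 (-0.70 to -0.14) and -0.43 (-0.75 to -0.12). For Rbl1 the counting interval held 0 on all 4 days. Ccnd3 was at 95.1%, 79.2%, 91.2% and 75.1% of control, with a log2 ratio of -0.41 (-0.57 to -0.25) on day 3. Cdkn1c was past 1.5-fold lower on day 0 and higher on day 3, at 40.0% and 343% of control, with intervals of -5.88 to 1.86 and -0.35 to 4.51 that held 0.

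**Figure D4:**
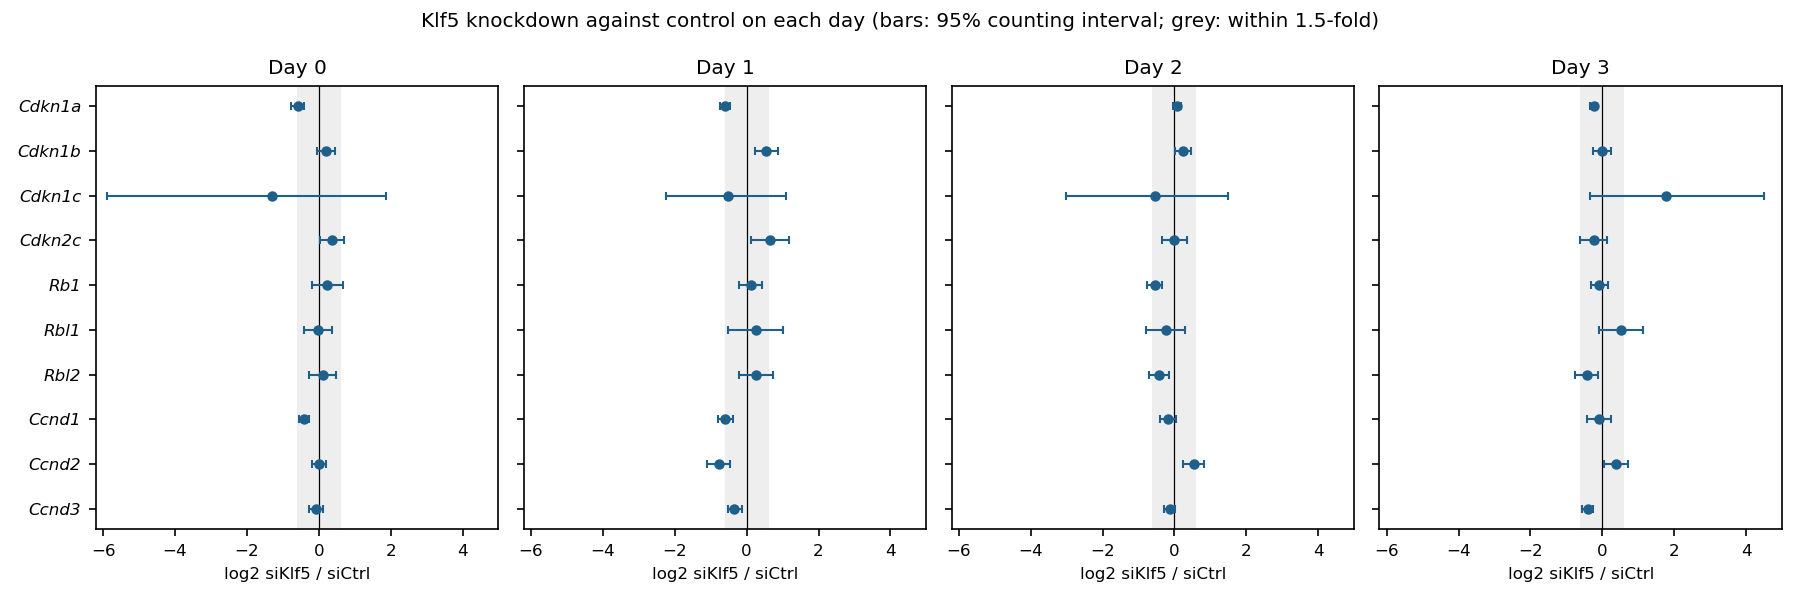
Log2 ratio of siKlf5 to siCtrl (horizontal axis) for each gene (vertical axis) in 4 panels for days 0, 1, 2 and 3, with 95% exact counting intervals as bars, 0 as a black line and the range within 1.5-fold in grey. Only Cdkn1a, Cdkn2c, Ccnd1 and Ccnd2 on day 1 and Cdkn1c on days 0 and 3 lie outside the grey range, and the Cdkn1c intervals are the widest of the panels.

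Taken over the 4 days, none of the 10 genes was called higher or lower in siKlf5 cells (limma, siRNA and day in the fit). This fit uses the spread of the difference between days as its error. Of all expressed transcripts 0.00699% were called higher and 0.0559% lower, and 1374 had an unadjusted p under 0.05. Klf5 was among the 8 transcripts called lower (log2 difference -1.94, SE 0.20, adjusted p = 0.024). An unadjusted p under 0.05 was found for 4 of the 10 genes. The limma log2 difference was -0.34 for Cdkn1a (95% interval -0.62 to -0.06, adjusted p = 0.45) and -0.32 for Ccnd1 (-0.55 to -0.09, adjusted p = 0.38). It was -0.24 for Ccnd3 (-0.43 to -0.05, adjusted p = 0.44) and 0.24 for Cdkn1b (0.02 to 0.47, adjusted p = 0.49). Ccnd1 and Ccnd3 were lower in 4 of 4 days, Cdkn1a was lower in 3 of 4, and Cdkn1b was higher in 3 of 4.

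For the other 6 genes the 95% interval of the log2 difference held 0, and it ran from -0.14 to 0.52 for Cdkn2c, from -0.39 to 0.24 for Rb1, from -0.22 to 0.47 for Rbl1, from -0.46 to 0.22 for Rbl2, from -0.43 to 0.50 for Ccnd2 and from -1.44 to 1.15 for Cdkn1c. No count of the 10 genes changed under any other setting of this fit. In the wider pathway none of the E2F targets, kinases, cyclins and regulators, E2F factors, MuvB genes, other inhibitors, ubiquitin ligase parts or p53 targets was called in this fit. The 15 E2F targets had a median log2 difference of 0.20 over the 4 days. Past 1.5-fold in siKlf5 cells, 0 were higher and 1 lower on day 0, 3 higher and 0 lower on day 1, none on day 2, and 1 higher and 0 lower on day 3, beside the shares of all expressed transcripts given above.

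Whether the difference between the siRNAs changed from day to day was tested as a slope. No transcript of the 14312 was called (limma, smallest adjusted p = 0.56), and 694 had an unadjusted p under 0.05. Cdkn2c was the only 1 of the 10 genes among them, with a slope of -0.24 log2 per day (95% interval -0.47 to -0.01, unadjusted p = 0.041 in limma). The slope was 0.17 per day for Cdkn1a (95% interval -0.07 to 0.41) and 0.14 for Ccnd1 (-0.05 to 0.33).

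Other transcripts followed the same courses over the 8 libraries. The likeness was measured as Pearson's r of log2(FPKM + 0.1) over 8 libraries among 11347 transcripts averaging 10 or more, as a description, since the libraries share days and the siRNA. For Cdkn1a the nearest were Jsrp1 (r = 0.985), Ucp2 (r = 0.976) and Kdm7a (r = 0.976). For Rb1 they were Ablim3 (r = 0.992), Fbxo32 (r = 0.991) and Trim63 (r = 0.989), of which Fbxo32 and Trim63 encode muscle ubiquitin ligases. For Rbl1 they were Kif20b (r = 0.990), a mitotic kinesin, Hus1 (r = 0.988), a DNA damage checkpoint gene, and Ndufaf4 (r = 0.986). For Ccnd1 they were Plaur (r = 0.994), the urokinase receptor, Adss (r = 0.994) and Twf1 (r = 0.993), and for Ccnd3 they were Tnfrsf23 (r = 0.970), Uso1 (r = 0.969) and 2310001K24Rik (r = 0.968). Cdkn1c was not compared because its mean was under 10.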

How the data were processed

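Paired-end reads of poly(A) RNA were aligned by the authors to mm9 with STAR, and HOMER counted those on RefSeq exons from either strand, with a limit of 3 per position and a single transcript for each gene (versions not given in the sources used here). The deposited FPKM values carry a matrix total of 10000000 per library. The table's other 8 columns of log2 values were not used.

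Reads were recovered from the steps between low FPKM values times exon length. Of the 1810 to 2551 values checked in a library, all were whole to within 0.1 reads. Transcripts with 6 reads outnumbered those with 5, so exact (Clopper-Pearson) intervals were computed on reads divided by 6. No count test was run. Ratios used a pseudocount of 0.1. limma 3.58.1 (R 4.3.3; lmFit, and eBayes with a trend) was run on log2(FPKM + 0.1), with siRNA and day as factors or with siRNA, day and the product of siKlf5 and day number (the slope). The fits were tested on simulated data, with changes given to transcripts drawn from all those expressed. Of siRNA differences of 1 and 2 on the log2 scale, 54.2% and 71.0% were called in the right direction. Of day 3 changes of these sizes, 24.3% and 63.4% were called. A gene that was not called may therefore still differ.

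The genes named were the 10 genes, Klf5, and up to 3 genes per pathway list, those with the widest day 3 contrasts. The rule for the 10 genes reads names only, but these genes were proposed, and all gene lists written, with earlier results of these data known. No separate cultures are named in the labels, and p-values measure only the spread between these libraries. Alternatives were another pseudocount, other filters, 2 scalings, a 2-fold threshold, and leaving out the libraries of a day or a siRNA. Others dropped day or siRNA from the fit, or dropped the trend. Python 3.11.15, pandas 2.3.3 and scipy 1.17.1 were used.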

Additional observations from a re-analysis of the deposited data

Results flagged for a closer look

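Ccnd2 moved in opposite directions on different days. Its log2 difference of siKlf5 from siCtrl was -0.77 on day 1, whereas days 2 and 3 gave 0.53 and 0.38, with counting intervals that left out 0 on each of these days. The difference between these days was not tested pair by pair, since each day holds 1 library per siRNA. The slope over the days was 0.24 log2 per day (95% interval -0.13 to 0.61, limma unadjusted p = 0.17).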

How the results depend on the processing

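Of 370 tested values of single genes under alternative settings, 328 kept their direction and their side of the threshold. Of 200 untested siRNA ratios of single days, 1 changed sign (Cdkn1b on day 3, from -0.02 to 0.02 with upper-quartile scaling) and 2 crossed 1.5-fold with median-ratio centring (on day 1, Cdkn2c from 0.64 to 0.58 and Cdkn1c from -0.52 to -0.59). Of 60 untested changes within a single siRNA, 3 had the other sign (Cdkn1c on day 3 at -0.51 and Cdkn1b on day 3 at 0.10 in siCtrl, and Rbl2 on day 1 at 0.04 in siKlf5). The calls on day 3 of Cdkn1a, Rb1 and Ccnd1 and that of Ccnd1 on day 2 held in every fit with a test. Depth limited Cdkn1c, at 8 to 54 reads per library.

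The siRNA difference over the 4 days called 1 transcript higher and 8 lower. With no filter it called 0 and 0, and without the trend 0 and 0. Without day in the fit it called 0 and 1. Leaving out 1 day at a time gave 0 to 0 in each direction. None of these changed the count of 0 of the 10 genes. The difference changed sign, without a call, for Cdkn1c (-0.78 to 0.23, positive without day 0), Rb1 (-0.18 to 0.09, positive without day 2), Ccnd2 (-0.13 to 0.30, negative without day 2 and, at -0.08, without day 3) and Rbl1 (-0.00 to 0.24, negative without day 3).

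Against day 0, dropping siRNA from the fit ended the calls of Ccnd1 (limma adjusted p = 0.14) and Ccnd3 (0.071) on day 1. It also ended those of Ccnd3 on days 2 and 3 (0.079 and 0.055), and no other call of the 10 genes. With no filter 282 transcripts were higher and 371 lower on day 1, day 2 had 655 and 551, and day 3 had 905 and 1256. Of the 10 genes 0 were then higher and 0 lower on day 1, day 2 had 0 and 1, and day 3 had 2 and 1. Without the trend 359 transcripts were higher and 308 lower on day 1, day 2 had 862 and 512, and day 3 had 1227 and 1366. Of the 10 genes 0 were then higher and 0 lower on day 1, day 2 had 1 and 2, and day 3 had 2 and 2. Upper-quartile scaling gave 1294 transcripts higher and 895 lower on day 1, and 3 and 1 of the 10 genes. Rbl2 on day 1 changed sign (0.08 with median-ratio centring, 0.10 with upper-quartile scaling), and Cdkn1b on day 3 to 0.10 after either.

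For transcripts past 1.5-fold between the siRNAs, the number followed the filter and the threshold, by construction. With no filter 2374 were higher and 2644 lower on day 0, and day 1 had 3261 and 2531. Day 2 then had 2276 and 2977, and day 3 had 2573 and 2849. A minimum mean of 5 gave 743 and 1001 on day 0, and 1671 and 1040 on day 1. That filter gave 551 and 1138 on day 2 and 933 and 1128 on day 3. A 2-fold threshold gave 793 and 968 on day 0, then 1300 and 924, then 627 and 1039, and 893 and 1069 on day 3. At 2-fold 0 of the 10 genes were higher and 0 lower on day 1. Past 1.5-fold after median-ratio centring, 0 were higher and 4 lower on day 1. Except where a construction is named, the cause was not tested.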
